A study of Mus musculus with 14 samples.

Results

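The genes described here are 41 mouse genes of the unfolded protein response and of the secretory pathway in the endoplasmic reticulum (ER). They are the rows of the deposited count table whose symbol is on a fixed list of ER stress sensors and targets, ER chaperones, factors of ER-associated degradation and subunits of the translocon. All 41 were found among the 23420 gene symbols of the table. The test used 14217 genes that passed a filter on low counts, and 40 of the 41 genes were among them. Trib3, a pseudokinase induced by ATF4 and CHOP, was not.

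RNA was measured in 14 libraries of 150 dendritic cells (DCs) each, sorted from popliteal lymph nodes of C57BL/6 mice. The study used LIPSTIC, in which a sortase on the CD40 ligand of T cells transfers a biotin-bearing peptide onto a glycine tag (G5) on the CD40 of the DCs they touch. Recipients with tagged CD40 (genotype given as G5-Cd40+/+ in the labels and Cd40G5/G5 in the protocol) received 500000 tagged DCs per footpad, pulsed with the ovalbumin peptide OVA323-339. Then, 18 hours later, they received 300000 CD4+ T cells of the OT-II line intravenously, with the alleles CD40lgSrtA/Y and CD4-Cre. The OT-II receptor recognises this peptide, and the sortase allele depends on a Cre that is expressed in T cells. The substrate Biotin-LPETG (300 nmol per footpad) was injected 46 hours after the T cells, with harvest at 48 hours. Sequencing was done on the host's own DCs, MHC-II high, CD11c+ (given as intermediate in the sample labels), CD11b+ and XCR1-, which formed 6 biotin-positive and 6 biotin-negative libraries. A further 2 libraries came from the same DC gate of Cd40-/- mice whose transferred DCs and OT-II T cells were wild type. Genotype and transferred cells therefore differ together in that group, and these DCs were not split by biotin. All groups received pulsed DCs and OT-II cells, so none is an unstimulated baseline. Ages are not given in the labels. Whether libraries came from separate mice is not stated in the labels; p-values cover only the spread among these libraries, which may be technical.

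Secreted and membrane proteins enter the ER through the SEC61 channel and fold there with the help of chaperones, glycan-binding lectins and enzymes that form disulfide bonds. When unfolded protein accumulates, 3 sensors signal to the nucleus. IRE1 (Ern1) splices the Xbp1 transcript, PERK (Eif2ak3) phosphorylates eIF2 so that ATF4 and then CHOP (Ddit3) are made, and ATF6 is cleaved to release a transcription factor. XBP1 and ATF6 raise chaperones and the degradation machinery, which extracts misfolded proteins from the ER and passes them to the proteasome. DCs depend on this system for folding MHC molecules and secreted cytokines, and XBP1 is known for its role in DC survival and antigen presentation. Gene counts do not separate spliced from unspliced Xbp1 RNA or show phosphorylation or cleavage of the sensors.

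The promoter elements through which ATF6 and XBP1 act are shown first, because they join members whose RNA levels are compared below. RefSeq promoter windows (GRCm38.p6, 250 bases before to 50 bases after each annotated start) matched 36 of the 41 members; Hyou1, Atf6, Manf, Sec61a1 and Derl1 were not matched. The ER stress response element (ERSE) was searched on both strands as CCAAT and CCACG with 9 bases of any kind between them. It was found in 9 of the 36 members (25%) and in 0.137% of the 27025 gene symbols with a window. ERSE-II was searched on both strands as ATTGG and CCACG with 1 base between them, and was found in 2 of the 36 members (5.56%) and in 0.0444% of all symbols. The 2 patterns share no match in these windows. The sites are printed 5′ to 3′ in the orientation of the motif, with its fixed letters in capitals and the spacer in lower case.
Hspa5 ERSE: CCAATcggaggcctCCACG
Hsp90b1 ERSE, nearer the start: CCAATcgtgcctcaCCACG
Hsp90b1 ERSE, farther from the start: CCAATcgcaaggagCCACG
Calr ERSE: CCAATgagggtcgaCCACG
Canx ERSE: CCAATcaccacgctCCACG
Pdia6 ERSE: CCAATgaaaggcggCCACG
Dnajc3 ERSE: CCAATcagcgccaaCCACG
Creld2 ERSE: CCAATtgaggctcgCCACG
Syvn1 ERSE: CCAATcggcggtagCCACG
Derl3 ERSE: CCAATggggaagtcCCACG
Herpud1 ERSE-II: ATTGGgCCACG
Dnajb11 ERSE-II: ATTGGcCCACG
The spacers of the 10 ERSE sites differ from each other, and both flanks are fixed by the search. The Herpud1 site lies at chr8:94386377-94386387 on the plus strand, 52 bases before the start, and the Hspa5 site at chr2:34772025-34772043 on the plus strand, 65 bases before it. The Dnajb11 site lies 7 bases after the start, at chr16:22857852-22857862. Sites of Hsp90b1 (nearer one), Calr, Creld2 and Derl3 lie on the strand opposite to the gene. The UPR element TGACGTGG and the ATF4-type element TGATGNAAT, searched on both strands, were found in 0 of the 36 windows and in 0.714% and 1.08% of all symbols. The last letter of the ATF4-type pattern was fixed as T. The windows of Asns, Chac1 and Herpud1, for example, hold stretches that differ from it only in that letter, which were not counted. The result for this element therefore covers the exact pattern and does not show that ATF4-type sites are absent. A match is a string of letters and not a measured binding site.

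The 250 bases before the start are printed for Herpud1 (chr8:94386179-94386428, plus strand), the member called in both comparisons of biotin-positive libraries, and for Hspa5 (chr2:34771840-34772089, plus strand), the gene of the main ER chaperone. Capitals mark the exact matches to the searched patterns, ERSE-II in Herpud1 and ERSE in Hspa5. Stretches that differ from a pattern in a fixed letter are not marked.
Herpud1 promoter: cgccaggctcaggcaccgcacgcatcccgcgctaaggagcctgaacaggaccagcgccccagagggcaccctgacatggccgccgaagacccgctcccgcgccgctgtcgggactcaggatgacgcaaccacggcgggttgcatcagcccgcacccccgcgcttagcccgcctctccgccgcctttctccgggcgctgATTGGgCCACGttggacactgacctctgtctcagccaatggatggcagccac
Hspa5 promoter: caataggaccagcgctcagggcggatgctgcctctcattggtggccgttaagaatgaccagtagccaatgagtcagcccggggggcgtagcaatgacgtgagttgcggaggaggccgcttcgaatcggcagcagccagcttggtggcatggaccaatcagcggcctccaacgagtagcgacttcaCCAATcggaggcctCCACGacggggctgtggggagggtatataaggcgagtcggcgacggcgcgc

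Total counts ran from 14518099 to 33260704 per library, and between 13090 and 15742 genes had a count. Levels are given as CPM, the counts scaled to a common library total. Cd40 was at 852 to 1309 CPM in biotin-positive, 386 to 598 in biotin-negative and 53.3 and 74.2 in Cd40-null libraries. Of 10 DC markers, 6 fell between biotin-negative and biotin-positive libraries (Itgax, H2-Aa, H2-Ab1, Cd74, Itgam and Sirpa), and all 10 were detected in each group. Lists of other cell types moved as well. Of the tested monocyte and macrophage markers, 11 of 19 fell, with summed levels of 125 to 292 CPM in biotin-positive libraries and 321 to 1726 in biotin-negative ones. Of 5 Langerhans cell markers 3 rose, with sums of 337 to 513 and 63.0 to 164. The calls were 1 of 6 higher for cDC1, 3 of 5 lower for NK cells, 2 of 10 lower for plasmacytoid DCs, 1 of 11 lower for T cells and 0 of 8 for B cells. Over all genes 7.75% were called. Of the T cell differences 7 were above 0 and 4 below, and of the plasmacytoid DC ones 5 and 5. The T cell sum came mostly from Il7r, at means of 282 and 485 CPM in biotin-positive and biotin-negative libraries. The NK cell sum came mostly from Ccl5, at 1344 and 2325 CPM, while Ncr1 averaged 0 and 0.0802. Numbers of detected genes did not overlap, at 13090 to 13455 in biotin-positive libraries and 14225 to 15742 in biotin-negative ones. The Cd40-null libraries had 13113 and 13596, also below all biotin-negative ones. The share of counts on the ribosomal RNA precursor gene Rn45s was 15.05% to 19.5% in biotin-positive libraries and 19.6% to 21.5% in biotin-negative ones, again without overlap. In bulk RNA, fewer cells of a type and less RNA per cell cannot be told apart. The part of these shifts in the results below was not tested, except that the number of detected genes was tried as a covariate. Since its values separate the biotin-sorted groups, that fit left only 11 of 14217 genes called between them. A call lost with this covariate therefore says little about a single gene.

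Plasma cells are the cell type best known for a high level of this programme. None of their 7 tested markers was called between biotin-positive and biotin-negative libraries, and the list includes Xbp1, which is also a member here. The defining genes were at or near 0: Igj averaged 0.290 and 0.0264 CPM in biotin-positive and biotin-negative libraries, Mzb1 0.406 and 0.409, Sdc1 0.520 and 1.98, and Tnfrsf17 0.0258 and 0.0191. The summed list, 209 to 290 and 294.5 to 398 CPM, came almost wholly from Irf4, Prdm1 and Xbp1, which DCs also express.

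Biotin-positive and biotin-negative libraries had nearly the same levels of most ER genes. Of the 40 members tested, Herpud1 rose 1.28-fold, Sec61b fell 1.44-fold, and 38 were not called at an adjusted p under 0.05. This is 5% of the members, beside 7.75% of all 14217 genes called in the same comparison (3.7% higher and 4.05% lower), so the share of calls was not above the background. The median log2 difference of the members was -0.06, with 18 above and 22 below 0, beside -0.03 over all genes. At an unadjusted p under 0.05 there were 7 members of 40, beside 21.1% of all genes. For 31 of the 40 members (77.5%) the whole 95% interval of the difference lay within 2-fold in either direction, and for 23 (57.5%) within 1.5-fold. Over all genes these shares were 43% and 18.6%, and they depend on how abundant a gene is. The summed level of the 41 members was 3692 to 4151 CPM in biotin-positive, 3790 to 4094 in biotin-negative and 3748 and 3843 in Cd40-null libraries, which overlap.

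**Figure D1:**
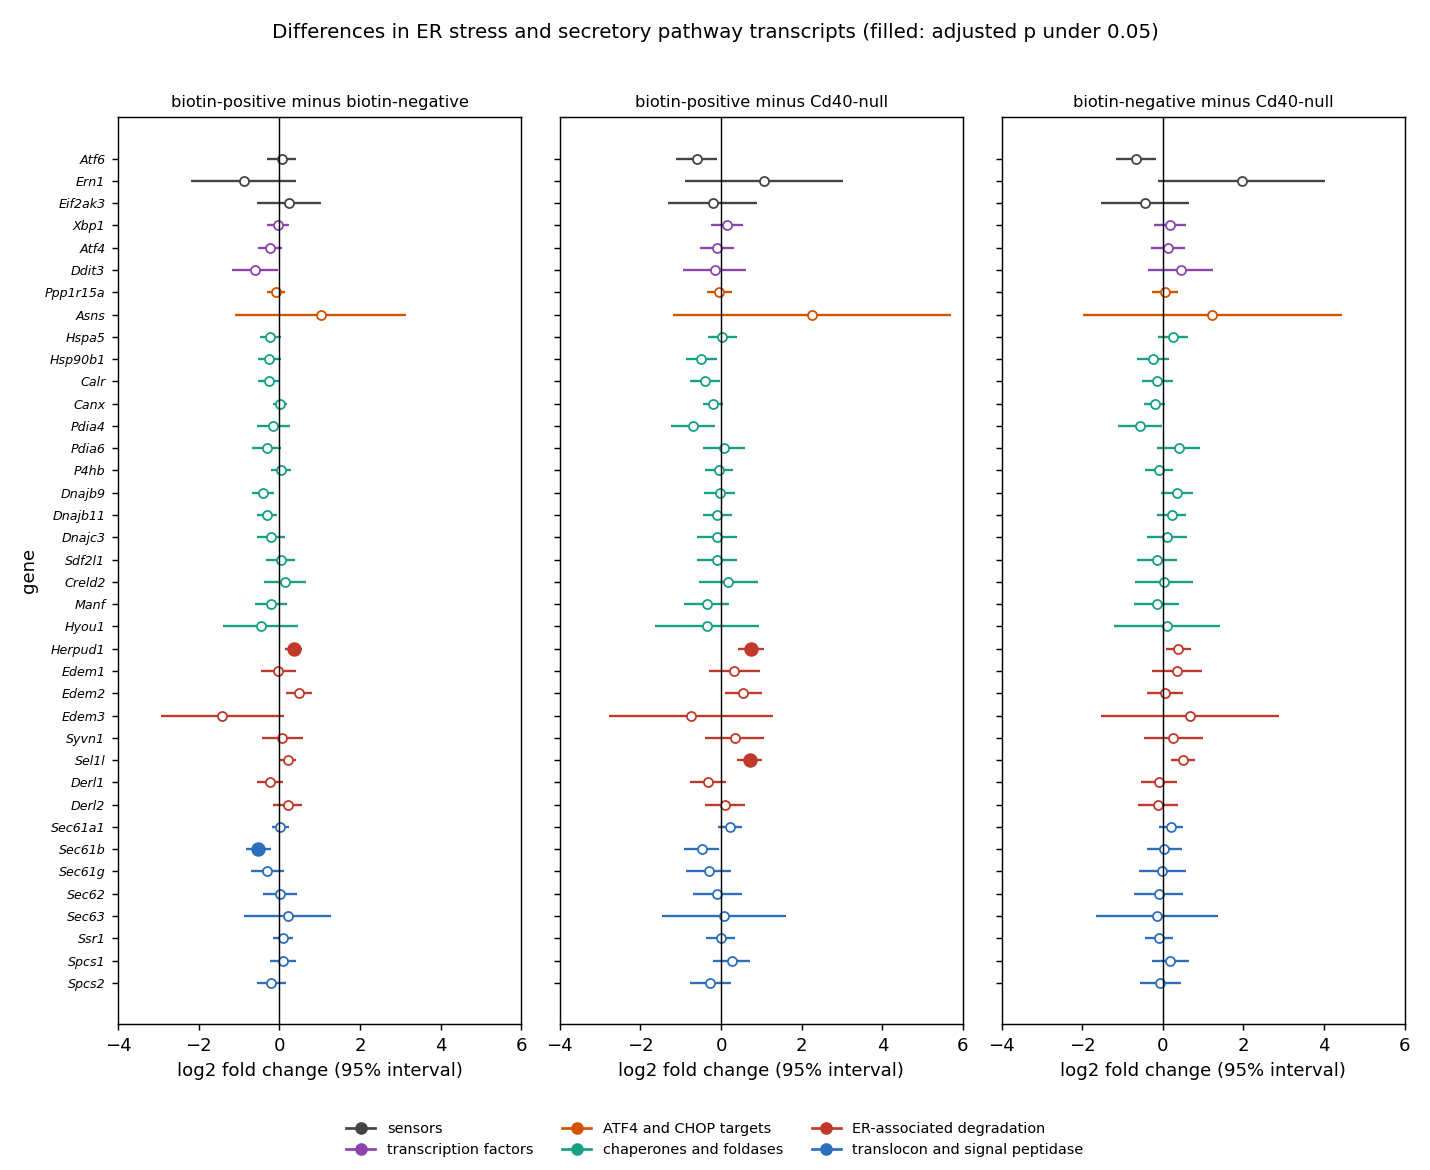
Log2 fold change (x axis) with its 95% interval for the members (y axis), coloured by role, in the 3 comparisons. Filled points passed an adjusted p of 0.05: Herpud1 and Sec61b on the left, Herpud1 and Sel1l in the middle, none on the right. Trib3, which was not tested, and Chac1 and Derl3, which had libraries at 0 in each group, are not drawn.

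Among the sensors, edgeR, DESeq2 and limma voom called 0 of 3, and 0 were at an unadjusted p under 0.05. Atf6 was at 57.5 to 95.01 CPM (median 67.9) in biotin-positive libraries and 60.5 to 87.8 (median 65.8) in biotin-negative ones, a log2 difference of 0.06 ± 0.17 (SE). Eif2ak3, the PERK kinase, ranged from 15.4 to 42.1 CPM and from 5.90 to 36.4 CPM, and its 95% interval ran from -0.55 to 1.03. Ern1, the IRE1 kinase and RNase, was low, at 0.866 to 5.52 CPM in biotin-positive libraries and 2.22 to 8.21 in biotin-negative ones. Its difference was -0.88 ± 0.62 with an adjusted p of 0.481, and an interval from -2.18 to 0.42 leaves changes beyond 2-fold possible. The groups overlapped for all 3 sensors.

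The 3 transcription factors had 0 calls with the same tools, and 1, Ddit3, was at an unadjusted p under 0.05. Xbp1 was at 76.3, 81.4 and 92.2 CPM (lowest, median and highest) in biotin-positive libraries and at 59.6, 83.4 and 109 in biotin-negative libraries. The biotin-positive values lie inside the biotin-negative range, and the 95% interval of the log2 difference was -0.32 to 0.24. Atf4, the factor of the PERK branch, had a log2 difference of -0.23 ± 0.14 (adjusted p = 0.408). Ddit3, which encodes the pro-apoptotic factor CHOP, was at 7.58, 10.5 and 15.6 CPM in biotin-positive libraries and 10.1, 18.2 and 22.1 CPM in biotin-negative ones. Its difference was -0.60 ± 0.27 and missed the threshold (adjusted p = 0.197), with overlapping groups.

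Of the ATF4 and CHOP targets, Ppp1r15a was abundant and the other 3 were low. Ppp1r15a, which encodes the phosphatase subunit GADD34 that restores translation, was at 219 to 334 CPM in biotin-positive libraries and 268 to 324 in biotin-negative ones. Its log2 difference was -0.09, with an interval from -0.32 to 0.14. Asns, asparagine synthetase, was at 4.80 to 13.7 CPM in biotin-positive libraries and at 0 to 14.6 CPM in biotin-negative ones. Of the 6 biotin-negative libraries, 5 were at 3.22 CPM or below, and replicate 6 was at 14.6. Its log2 difference of 1.03 ± 1.00 was not called (adjusted p = 0.651). Chac1, an enzyme that breaks down glutathione, had 15 counts over the 6 biotin-positive libraries, 14 of them in replicate 2, and 27 over the biotin-negative ones. Trib3 had 0 counts in the 6 biotin-positive libraries, which allows at most 0.0261 CPM over the group at 3 counts, and 7 counts over the biotin-negative libraries. No fold is given for Trib3 and Chac1, and no difference was detectable at this depth.

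The 14 chaperones and foldases had 0 calls by edgeR, with 10 differences below 0 and a median of -0.21. At an unadjusted p under 0.05 there were 2, and DESeq2 and limma voom called 1 of them, Dnajb9. Hspa5, which encodes the master chaperone BiP, was at 186, 243 and 261 CPM in biotin-positive libraries and 204, 283 and 315 CPM in biotin-negative ones. The ranges overlapped, and the log2 difference was -0.22 with a 95% interval from -0.48 to 0.03 and an adjusted p of 0.317. Hsp90b1 (GRP94) and the lectin chaperone Calr were close to it, with log2 differences of -0.25 and -0.26. Canx, the membrane-bound relative of Calr, had a difference of 0.01 and an interval from -0.16 to 0.19. P4hb, a protein disulfide isomerase, had one of 0.05 from -0.19 to 0.29. The 95% intervals of 13 of the 14 lay within 2-fold; the exception was Hyou1, an HSP70 relative, at -0.47 with an interval from -1.39 to 0.46.

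The BiP cochaperones Dnajb9 and Dnajb11 came nearest to a call among the chaperones. Dnajb9 (ERdj4) was at 71.6, 90.2 and 117 CPM in biotin-positive libraries and 101, 125 and 144 CPM in biotin-negative ones. Of the 6 biotin-positive libraries, 4 were below all biotin-negative ones, and the log2 difference was -0.40 ± 0.13 (adjusted p = 0.0750). Dnajb11 (ERdj3) was at 49.8, 55.5 and 73.5 CPM and at 64.6, 70.9 and 75.4 CPM, with a difference of -0.31 ± 0.12 (adjusted p = 0.135). Biotin-positive replicate 5 alone lay in the biotin-negative range, and without it the difference of Dnajb11 was -0.39 with an adjusted p of 0.0403. Dnajb9 was called by DESeq2 (adjusted p = 0.0374) and by limma voom (0.0438), and in 2 of 14 edgeR fits that left out 1 library each. The remaining chaperones were not called. The log2 differences were -0.31 for Pdia6 and -0.15 for Pdia4, both disulfide isomerases, -0.20 for the BiP cochaperone Dnajc3, 0.03 for Sdf2l1, which works with BiP cochaperones, 0.14 for Creld2 and -0.20 for Manf, a secreted stress-induced protein.

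The 9 genes of ER-associated degradation had a median log2 difference of 0.21, with 6 above 0 and 1 call. Herpud1, an ER membrane protein that gathers the degradation complex, had 382, 446 and 492 CPM in biotin-positive libraries. It had 286, 338 and 404 CPM in biotin-negative and 240.4 and 282 CPM in Cd40-null libraries. Between 5262 and 14049 counts stood behind each value. Of the 6 biotin-positive libraries, 4 were above all biotin-negative ones. The log2 difference was 0.36 ± 0.10, with an interval from 0.14 to 0.57 and an adjusted p of 0.0415. The gene lies at chr8:94386438-94395377 on the plus strand (GRCm38). Its call was lost, at adjusted p of 0.0563 to 0.0957, without any 1 of biotin-positive replicates 2, 3, 5 and 6 or biotin-negative replicates 3, 4, 5 and 6, while its log2 difference stayed between 0.31 and 0.38. It was also lost with upper-quartile scaling (0.0519), with no filter on low counts (0.0675) and with the number of detected genes as covariate (0.17, adjusted p = 0.874).

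Edem2, a lectin-like factor that starts the mannose trimming of misfolded glycoproteins, was the only member whose biotin-positive and biotin-negative libraries did not overlap, beside 5.02% of all genes (2.6% higher and 2.41% lower). It had 79.8, 88.6 and 114 CPM in biotin-positive libraries, 49.9, 73.4 and 77.7 in biotin-negative and 54.7 and 74.4 CPM in Cd40-null libraries. The log2 difference was 0.49 ± 0.15 and missed the threshold (adjusted p = 0.0550). It was called by DESeq2 (0.0242), by limma voom (0.0433) and by limma on the normalized signal (0.0411), and without biotin-positive replicate 5 (0.0456). Its relatives were not called: Edem1 had a difference of -0.02 ± 0.21, and Edem3, at 0.306 to 10.3 CPM in the biotin-sorted libraries, one of -1.42 ± 0.72.

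The remaining degradation genes were not called. Sel1l, the adaptor of the HRD1 ubiquitin ligase, was at 350.2, 394 and 485 CPM in biotin-positive libraries and 291, 360.4 and 398 CPM in biotin-negative ones, a log2 difference of 0.21 ± 0.10 (adjusted p = 0.231). Syvn1, the HRD1 ligase itself, had a difference of 0.08 ± 0.24. The Derlins, which sit at the exit channel, had differences of -0.22 for Derl1 and 0.21 for Derl2. Derl3 had no count in 4 of the 6 biotin-positive libraries, 3 of the 6 biotin-negative libraries and 1 of the 2 Cd40-null libraries, and its interval from -3.35 to 3.93 bounds nothing.

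**Figure D2:**
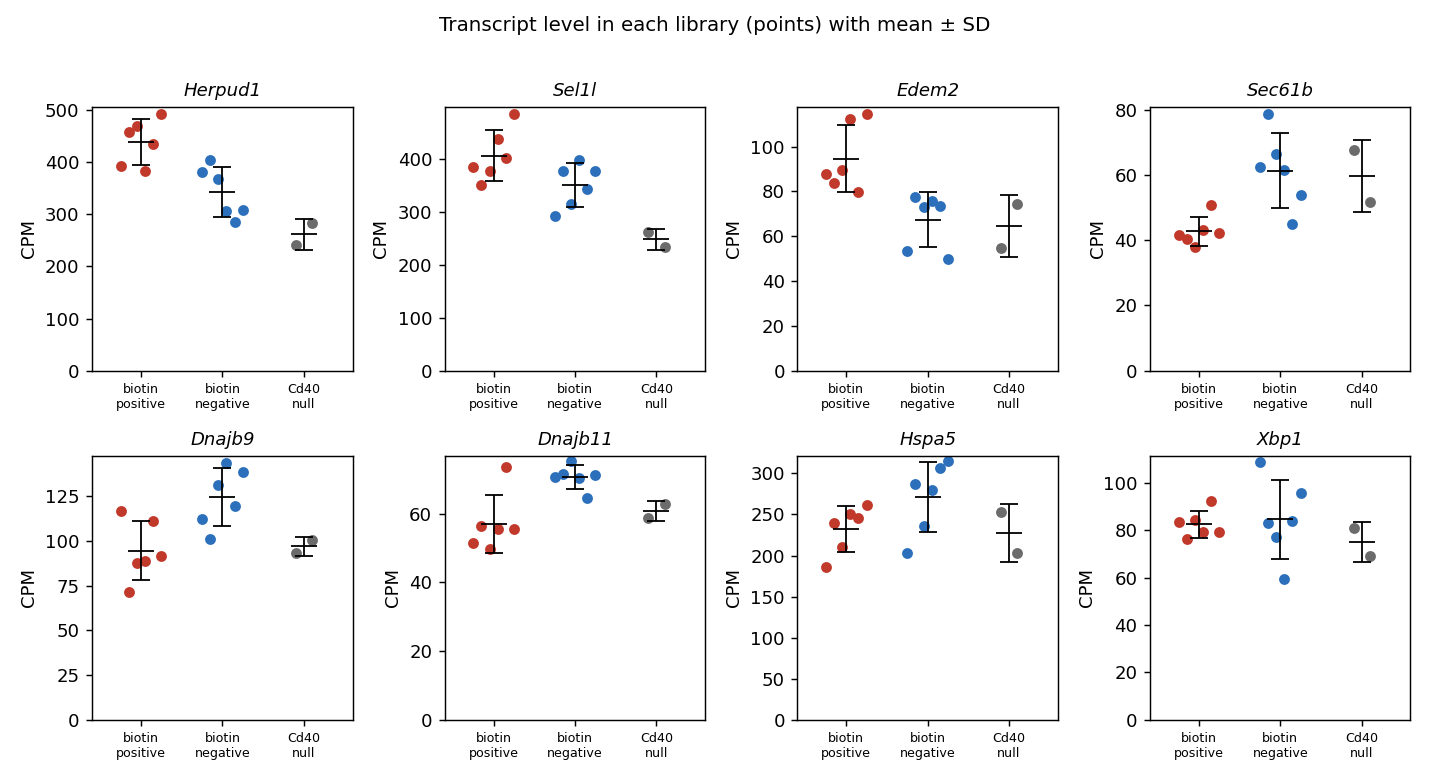
CPM (y axis, from 0) of 8 members in each library, as points, by group (x axis), with the mean and SD of the group as bars. Edem2 separates the biotin-sorted groups at 79.8 CPM against 77.7 CPM. Herpud1, Sec61b, Dnajb9 and Dnajb11 overlap in part. The biotin-positive points of Xbp1 fall within the biotin-negative range.

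Of the 8 genes of the translocon and signal peptidase, Sec61b fell and 7 were not called. Sec61b encodes the beta subunit of the channel and lies at chr4:47474658-47483242 on the plus strand. It was at 37.9, 41.9 and 50.7 CPM in biotin-positive libraries, 44.9, 62.0 and 78.7 in biotin-negative and 51.8 and 67.5 CPM in Cd40-null libraries. Of the 6 biotin-positive libraries, 5 were below all biotin-negative ones, and replicate 5 was above only the lowest of them. The log2 difference was -0.52 ± 0.15, with an interval from -0.83 to -0.21 and an adjusted p of 0.0371. Its call was lost, at adjusted p of 0.0535 to 0.0823, without any 1 of biotin-positive replicates 1, 2, 3, 4 and 6 or biotin-negative replicates 1, 2, 3 and 4. It was also lost with no filter (0.0516) and with the number of detected genes as covariate (0.369), where the log2 difference was -0.77.

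The other subunits of the same channel were not called. Sec61a1, the pore-forming subunit, had 182 to 237 CPM and 181 to 251 CPM, a log2 difference of 0.03 with an interval from -0.18 to 0.23. Sec61g, the gamma subunit, had a difference of -0.30 ± 0.19 (adjusted p = 0.433). Sec62 and Sec63, which serve post-translational import, had differences of 0.02 and 0.21, the second at only 1.98 to 13.7 CPM in biotin-positive libraries. Ssr1, a subunit of the translocon-associated complex, had 0.09, and the signal peptidase subunits Spcs1 and Spcs2 had 0.08 and -0.20. The median over the 8 genes was 0.02.

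Summed by role, the degradation genes did not overlap between the biotin-sorted groups. Their sum was 1146 to 1385 CPM in biotin-positive, 957.5 to 1135 CPM in biotin-negative and 837 and 873 CPM in Cd40-null libraries. Herpud1 and Sel1l together made up most of it, with means of 438 and 406 CPM in biotin-positive libraries out of 1227. The chaperone sum overlapped, at 1447 to 1692 CPM in biotin-positive libraries and 1534 to 1878 in biotin-negative ones, and so did the translocon sum, at 526 to 667 and 542 to 657 CPM. Sums are weighted by the abundant genes and are given as a description.

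**Figure D3:**
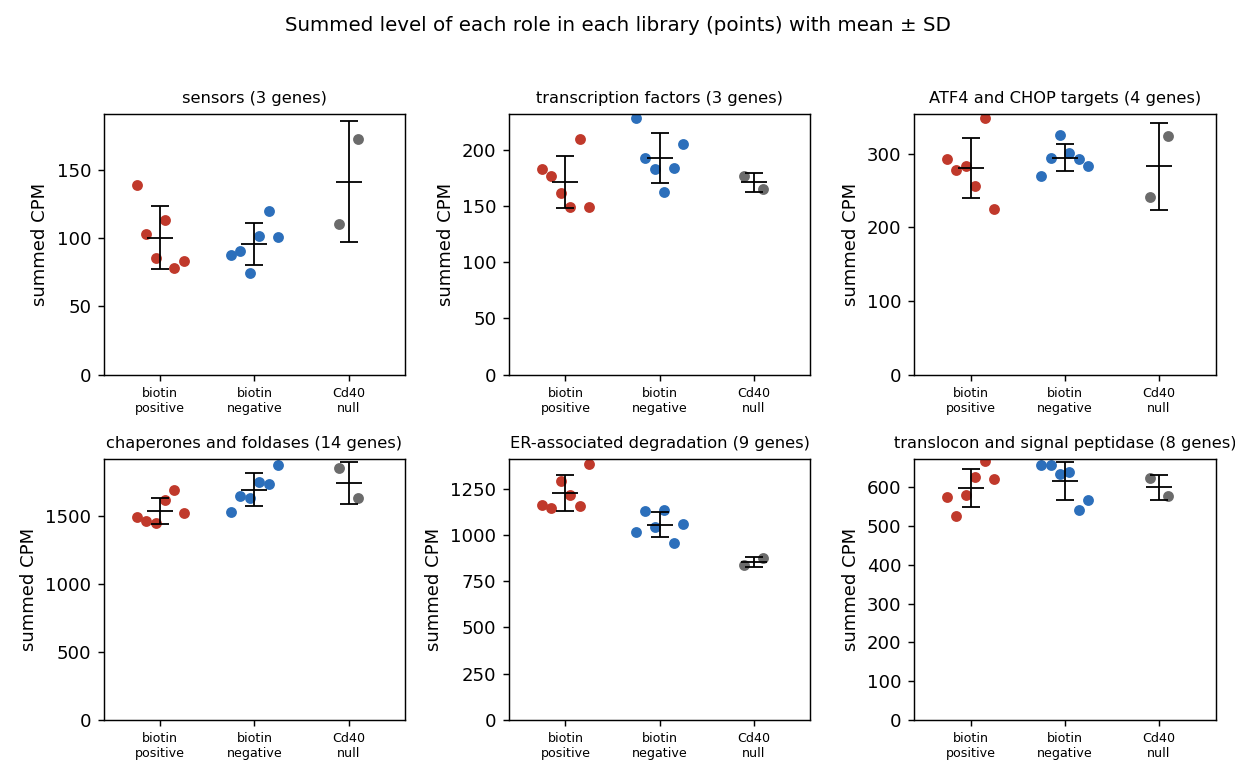
Summed CPM (y axis, from 0) of the genes of each role in each library, as points, by group (x axis), with mean and SD as bars. In the panel on degradation the biotin-positive libraries (1146 to 1385) lie above the biotin-negative ones (957.5 to 1135) and both Cd40-null libraries lie below; the other 5 panels show overlapping biotin-sorted groups.

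Against Cd40-null libraries, Herpud1 and Sel1l rose in biotin-positive libraries. These are 2 of 40 members (5%), both higher, beside 2.27% of all genes called (1.22% higher and 1.05% lower); a count of 2 is too small to set against that share. Herpud1 was 1.67-fold higher, a log2 difference of 0.74 ± 0.15 with an interval from 0.42 to 1.07 and an adjusted p of 0.0150. Sel1l was 1.64-fold higher, at 350.2 to 485 CPM against 234 and 262 CPM, a difference of 0.71 ± 0.15 with an interval from 0.40 to 1.02 and an adjusted p of 0.0163. Neither gene overlapped between these groups. Genes on the lists of other cell types differed here too. In biotin-positive libraries 3 of 5 tested NK cell markers were lower, and 1 of 5 Langerhans cell markers and 1 of 11 T cell markers higher. Lower as well were 1 of 10 plasmacytoid DC and 1 of 19 monocyte and macrophage markers. The NK cell sum of Cd40-null libraries came mostly from Ccl5, at a mean of 2643 CPM, and 5 of the 10 listed NK cell genes had no count in that group. Of the 11 T cell differences, 4 were above 0 and 7 below. The part of these shifts in both calls was not tested. The member median was -0.07, beside 0.04 over all genes, and 8 members had an unadjusted p under 0.05, beside 13.8% of all genes.

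The Cd40-null group has 2 libraries, and each carries both calls. Without Cd40-null replicate 1 the adjusted p was 0.269 for Herpud1 and 0.108 for Sel1l, and without replicate 2 it was 0.0784 and 0.221, with the remaining library assumed to vary like the other groups. Over all genes these fits called 78 and 95 genes in place of 323. The biotin-positive group was compared here and above with different controls but the same 6 libraries, so the 2 calls of Herpud1 are not independent.

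Among the chaperones, 11 of 14 differences from Cd40-null libraries were below 0, with a median of -0.10 and 0 calls by edgeR, DESeq2 or limma voom, and 3 were at an unadjusted p under 0.05. Pdia4, a disulfide isomerase, was at 34.3 to 59.7 CPM in biotin-positive libraries and at 63.9 and 85.8 CPM in Cd40-null libraries. Hsp90b1 was at 151 to 211 CPM against 240.4 and 254 CPM. These groups did not overlap, yet the log2 differences of -0.71 ± 0.26 and -0.49 ± 0.18 missed the threshold (adjusted p = 0.203 and 0.226). Hspa5 differed by 0.03, with an interval from -0.33 to 0.39. In all, 4 members were higher without overlap (Herpud1, Sel1l, Edem2 and Asns) and 3 lower (Pdia4, Hsp90b1 and Sec61b), beside 7.81% and 8.07% of all genes (15.9% in all). Sec61b had a difference of -0.48 ± 0.20 (adjusted p = 0.284), near its value against biotin-negative libraries, and Edem2 one of 0.55 (adjusted p = 0.254).

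Between biotin-negative and Cd40-null libraries, edgeR called 0 of 40 members, beside 0.317% of all genes (0.274% higher and 0.0422% lower). At an unadjusted p under 0.05 there were 4 members (Sel1l, Atf6, Herpud1 and Pdia4), beside 9.22% of all genes. DESeq2 called Sel1l alone (adjusted p = 0.0441), and limma voom called 0. Sel1l had the smallest p, with 291 to 398 CPM against 234 and 262 CPM and a log2 difference of 0.50 ± 0.15 (adjusted p = 0.231). Herpud1 had a difference of 0.39 ± 0.15 (adjusted p = 0.440) and Atf6 one of -0.66 ± 0.24 (adjusted p = 0.384). Atf6 was at 60.5 to 87.8 CPM in biotin-negative libraries and at 81.3 and 145 CPM in Cd40-null libraries, so these groups overlapped. The levels of Herpud1 and Sel1l were thus ordered Cd40-null, biotin-negative and biotin-positive, but among neighbours in that order only Herpud1 between the biotin-sorted groups was called. Libraries did not overlap for 7 members that were higher (Sel1l, Herpud1, Ern1, Dnajb9, Pdia6, Dnajb11 and Spcs1) and for Canx, which was lower, beside 6.23% and 4.47% of all genes. Numbers of detected genes did not overlap between these groups either. Of the monocyte and macrophage differences 17 were above 0 and 2 below, with 0 of 19 called. Of the T cell ones 3 were above 0 and 8 below, with 1 of 11 called, higher. The part of these shifts in the member differences was not tested.

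Set per kilobase of annotated exon, so that genes can be compared, Herpud1 was the most abundant member in each group. It averaged 224 ± 22.4 (SD, n = 6) CPM per kilobase in biotin-positive libraries and 175 ± 24.5 in biotin-negative ones and 134 in Cd40-null libraries. P4hb (95.3), Ppp1r15a (92.9), Canx (81.7), Sec61b (75.7), Sec61a1 (67.8), Sel1l (64.3), Hsp90b1 (62.5) and Hspa5 (61.9) followed in biotin-positive libraries, and P4hb and Ppp1r15a lay within their spread of each other. Sec61b was second in biotin-negative libraries, at 109 ± 20.3. The sensors Eif2ak3 and Ern1 were far lower in biotin-positive libraries, at 4.85 and 0.295 CPM per kilobase, below the factors Atf4 (45.2) and Xbp1 (34.5). The lengths are the union of all annotated exons, so a gene with long unused exons is understated.

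**Figure D4:**
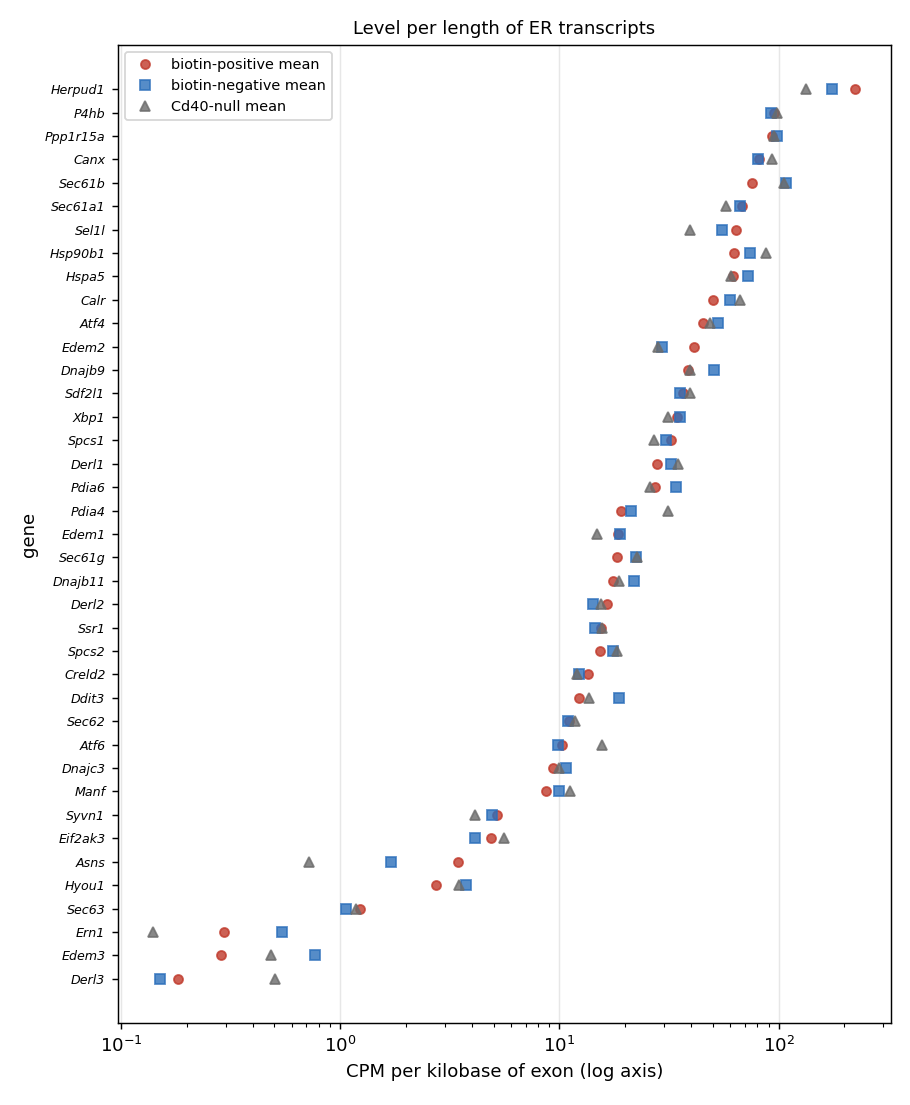
Group means in CPM per kilobase of exon (x axis, log scale) for 39 members (y axis), ordered by their level in biotin-positive libraries; Trib3 and Chac1, at 0 in a whole group, are not drawn. Herpud1 leads in all 3 groups, from 134 to 224, and most members have 3 markers close together.

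The spread among replicates was taken for the 30 members with a mean of at least 20 CPM. Their median coefficient of variation was 16.4% in biotin-positive libraries and 14.3% in biotin-negative ones, beside 20.03% and 21.8% over 5942 genes above the same level. The highest values were those of Eif2ak3, 46.3% and 57.0%. In the map of single libraries the low genes Ern1, Chac1, Asns, Hyou1, Edem3, Derl3 and Sec63, and also Eif2ak3, vary widely within a group, while Canx, P4hb and Sec61a1 are near their mean in every library. Calr and Spcs2 have annotated pseudogenes that can share reads with them, so their values are less certain. Pseudogenes were not searched for across the members, so others may be affected too.

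**Figure D5:**
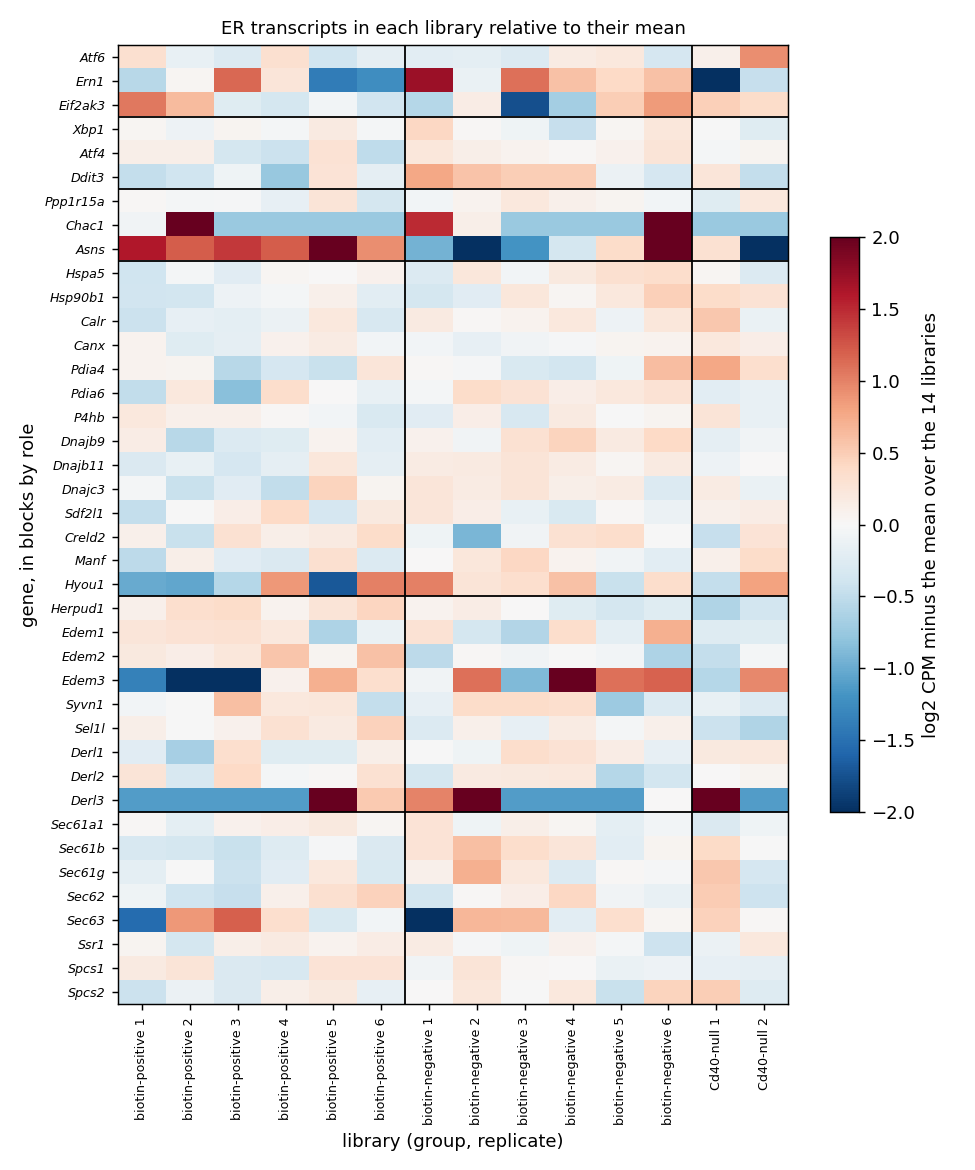
Log2 CPM of 40 members (y axis, in blocks by role) in each library (x axis, by group), as the difference from the gene's mean over the 14 libraries, with the colour scale ending at -2 and 2. Herpud1 and Sel1l are light red in most biotin-positive libraries and blue in both Cd40-null libraries, and strong colours fall mostly on genes of low count.

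The 9 members with an ERSE had 0 calls in each comparison with edgeR, DESeq2 and limma voom alike, and 0 were at an unadjusted p under 0.05 between biotin-positive and biotin-negative libraries, with a median log2 difference of -0.20 and 5 of 9 below 0. Against Cd40-null libraries, 2 of the 9 (Hsp90b1 and Calr) were at an unadjusted p under 0.05 in biotin-positive libraries, beside 13.8% of all genes. The medians were -0.10 and 0.03 for biotin-positive and biotin-negative against Cd40-null libraries. Of the 2 members with an ERSE-II, whose sites are printed above, Herpud1 rose and Dnajb11 was at -0.31 and not called.

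Beyond the members, 145 tested genes on 7 lists of related functions held 12 calls between biotin-positive and biotin-negative libraries, 6 higher and 6 lower (8.28%, beside the 7.75% of all genes). The ATF4 targets outside the members had 6 of 23 called, 3 in each direction. Sesn2, a stress-induced regulator of mTORC1, was at 74.4 to 103 CPM in biotin-positive libraries and 25.3 to 55.2 CPM in biotin-negative ones, a log2 difference of 1.27 ± 0.18 (adjusted p = 0.000236). The mitochondrial folate enzyme Mthfd2 (0.79) and the tryptophanyl-tRNA synthetase Wars (0.73) rose as well. The cystine transporter Slc7a11 fell, at 45.7 to 84.3 CPM against 114 to 209 CPM, a difference of -1.21 ± 0.18 (adjusted p = 0.000387). The translation repressor gene Eif4ebp1 (-1.55) and Nupr1 (-1.06) fell at low levels. In 14 fits that left out 1 library each, Nupr1 was called in 3 and Eif4ebp1 in 8, and the other 4 in all. With the number of detected genes as covariate, which left 11 of all 14217 genes called, all 6 lost their call. Sesn2 then had a difference of 0.79 (adjusted p = 0.494). The list median was 0.02.

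In the degradation pathway outside the members, 1 of 20 genes was called. Vcp encodes the p97 ATPase that pulls substrates out of the ER membrane and also serves other processes. It was at 1383, 1582 and 1681 CPM in biotin-positive libraries, 788, 852 and 1024 in biotin-negative and 835 and 935 CPM in Cd40-null libraries. The biotin-positive libraries overlapped with neither other group, beside 5.02% of all genes against biotin-negative and 15.9% against Cd40-null libraries. The Cd40-null values lay within the biotin-negative range. The log2 difference was 0.84 ± 0.08 (adjusted p = 1.45e-05) against biotin-negative and 0.82 ± 0.12 (adjusted p = 0.00178) against Cd40-null libraries, and without Cd40-null replicate 1 the second was not called (adjusted p = 0.0694). Of 19 further foldases and chaperones, Dnajc1 rose (0.99) and Prdx4 fell (-1.11), the second called in 3 of the 14 fits with a library left out. Of 18 genes of the translocon, the signal recognition particle and the signal peptidase, Ssr3 fell (-0.44, adjusted p = 0.00718), a partner of Ssr1. Of 32 ER to Golgi transport genes, the coat subunit Copa rose (0.43) and the small GTPase Arf4 fell (-0.40). These 6 calls against biotin-negative libraries, Vcp included, were also lost with the number of detected genes as covariate (adjusted p from 0.132 for Vcp to 0.804 for Arf4). The 18 N-glycosylation genes and the 15 further stress sensors and regulators had 0 calls by edgeR, with 3 of each at an unadjusted p under 0.05. Against Cd40-null libraries 3 of the 145 were called (2.07%, beside 2.27%): Vcp, Sesn2 (1.09, in 7 of 14 fits with a library left out) and Slc7a11 (-1.20, in 12 of 14). Between biotin-negative and Cd40-null libraries edgeR called 0, and 11 had an unadjusted p under 0.05.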

How the data were processed

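Polyadenylated RNA of 14 libraries of sorted mouse DCs was measured by Smart-seq2 with paired reads of 38 bases. The authors deposited expected counts per gene for 23420 symbols, which are whole numbers in the table. They also deposited a normalized signal for 10321 genes, among them 38 members; within a library all values are the counts over a single factor (largest relative deviation 9.94e-15). Per the submitters' processing notes the build was mm10 and the tools DESeq2 1.16.0, RSEM 1.2.8 and Bowtie2 2.1.0; their roles and the gene annotation are not given in the sources used here. Short reads shared by similar genes are divided by such estimates, and Smart-seq2 does not mark strand. Exons of 13 members overlap another gene (Derl2, Dnajb9, Eif2ak3, Hsp90b1, Manf, Pdia4, Pdia6, Ppp1r15a, Sec61a1, Sec62, Sec63, Spcs1 and Syvn1). Reads from the shared bases cannot be told apart by strand. This holds for antisense partners and for the same-strand partners of Hsp90b1, Manf and Pdia4.

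The counts were tested in R 4.3.3 with edgeR 4.0.16: filterByExpr by group with a minimum count of 10 (14217 genes), TMM scaling, 1 fit of all 14 libraries with a group factor (glmQLFit, robust) and two-sided glmQLFTest. Genes with a Benjamini-Hochberg adjusted p under 0.05 over all tested genes were called, and adjusted p-values are from this test unless another is named. Dividing a log2 fold change by the square root of F gave its standard error, and 95% intervals use the test's degrees of freedom. CPM are scaled by TMM; the map of libraries uses log2 CPM with a prior count of 2. Groups came from the sample labels, which name no batch.

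Alternatives were other scaling (DESeq2 size factors, upper quartile), no filter, a minimum count of 50, DESeq2 1.42.0, limma 3.58.1 voom with quality weights, limma on log2 of the deposited normalized signal plus 1, a fit of only the groups compared, a block for the replicate number, the number of detected genes as covariate, and each library left out. The code was tested on simulated counts. Gene positions and exon lengths are from GENCODE M21 (GRCm38), and promoters from RefSeq. All 41 members are named by role, with the lowest, median and highest library of each group of 6, and both Cd40-null libraries, for those called. The members, the gene lists and the 9 marker lists were chosen with earlier results of these data known. Depth was 14518099 to 33260704 counts per library. Limits at 3 counts cover counting error only, since reads carry no molecular identifiers.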

Additional observations from a re-analysis of the deposited data

Results flagged for a closer look

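Values of single libraries were compared with those of their own group in 80 groups of 6, 1 per gene and biotin-sorted group. In 8 of them 1 library stood apart, by Dixon's ratio of the gap to the group's range at the 95% level. Chance flags about 1 group in 20, so some of the 8 would arise in that way. Biotin-positive replicate 5 stood apart for Asns (13.7 CPM, next 7.75), Dnajb11 (73.5 CPM, next 56.5) and Derl3 (1.24 CPM, next 0.206). Biotin-positive replicate 2 stood apart for Chac1, high at 0.858 CPM (next 0.0566), and for Ssr1, low at 121 CPM (next 159). Biotin-negative replicate 6 was high for Asns (14.6 CPM, next 3.22) and Pdia4 (77.0 CPM, next 51.1) and low for Dnajc3 (41.9 CPM, next 54.7). None of these 7 genes was called with all libraries in the fit.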

How the results depend on the processing

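Of the 40 members, 34 were called in no comparison under any setting, and no call changed direction. Between biotin-positive and biotin-negative libraries the 2 calls became 1 with upper-quartile scaling (Sec61b), 0 with no filter on low counts, 4 with DESeq2 and 4 with limma voom (Herpud1, Edem2, Dnajb9 and Sec61b, beside 11% and 8.99% of all genes), and 0 with the number of detected genes as covariate. That covariate, whose values do not overlap between these groups, left 11 genes called of 14217, and Edem2 turned to -0.34. Apart from the replicate block, the other settings gave 2 or 3 calls. Leaving out single libraries gave 0 to 3. Against Cd40-null libraries, biotin-positive libraries kept 2 calls except with the replicate block and without either Cd40-null library (0 to 2). For biotin-negative against Cd40-null libraries the count was 0 except with DESeq2, which gave 1, and 0 to 0 with libraries left out. Replicate numbers did not pair the libraries: correlations of deviations in the 6 pairs ran from -0.023 to 0.013, and 1 of 6 was highest with its own number. With the replicate block the counts were 1 (Herpud1), 1 (Herpud1) and 0, and over all genes the first comparison had 891 calls in place of 1102; Sec61b had an adjusted p of 0.116 and Sel1l, against Cd40-null, 0.0986. Counts of Trib3 were too few to test. Between the biotin-sorted groups, intervals of 9 tested members reached beyond 2-fold (Chac1, Derl3, Edem3, Ern1, Asns, Sec63, Hyou1, Ddit3 and Eif2ak3); whether depth or spread sets them was not tested.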
